A study of Homo sapiens with 48 samples.

Results

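The interleukin-1 (IL-1) pathway was followed through 10 of the 29744 genes in the count table: the ligands IL1A, IL1B and IL33, the antagonist IL1RN, the receptors IL1R1, IL1RAP and IL1RL1, and the kinases IRAK1, IRAK2 and IRAK3. They were taken by gene name as pathway members, with earlier results of these data known. RNA was sequenced from IL11mNG fibroblasts, human immortalized skin fibroblasts sorted as single-cell clones in which mNeonGreen reports IL11, and how many clones make up the line is not given in the sources used here. Groups H47_Ctrl and H47_KO formed the knockout arm (CRISPRko) and carried Cas9 with a non-targeting or a GLIS3 guide RNA, whereas VP64_Ctrl and VP64_A formed the activation arm (CRISPRa) and carried dCas9–VP64, a catalytically dead Cas9 joined to an activator, again with either guide type. All guides came by lentivirus, and each group was a selected bulk population, so cells of H47_KO may carry different edits. Each group was kept for 0, 6, 12 or 24 h with the cytokines TGFβ and IL-1β, each at 10 ng per ml, harvest was at the same moment, and there were 3 libraries for each of the 16 conditions. The IL-1β added was protein and IL1B below is the cells' own messenger RNA. The cells at 0 h are the untreated background for every cytokine response.

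Sample titles and descriptions of the CRISPRa arm name opposite groups as the control, so its groups are called here by their descriptions. GLIS3 itself was measured at 16.4 to 36.9 CPM (counts scaled to a common library size) in VP64_A and 1.93 to 6.36 CPM in VP64_Ctrl. In H47_KO it was lower than in H47_Ctrl by a log2 difference of -1.68 (SE 0.26, edgeR adjusted p = 5.71e-05) over the 4 times. At single times GLIS3 was called lower at 0 h (-2.55, adjusted p = 0.0355) and not at 6 h (-1.80, adjusted p = 0.0925), 12 h (-1.21, adjusted p = 0.507) or 24 h (-1.17, adjusted p = 0.383). Library totals lay between 2321990 and 10661004 estimated counts, and all 8 fibroblast markers listed were detected in every group. Epithelial EPCAM and the leukocyte genes AIF1, LYZ and TYROBP were at 0 in all 48 libraries. The other leukocyte markers listed had counts, CD68 in 48 libraries, CSF1R in 46, CD14 in 30 and PTPRC in 11. Epithelial CDH1 had a count in 12 libraries. Keratinocyte markers summed to 22.8 to 85.0 CPM in VP64_A and to 10.6 to 21.3 CPM in VP64_Ctrl, with KRT1 at 0 in both groups. Among these markers edgeR called KRT14 and not KRT10 between these groups. The labels do not say whether the 3 libraries of a condition came from separate cultures. A general statement in the study's reporting summary describes its cell culture experiments as independent biological replicates, without naming these libraries. The p-values below measure the spread between these libraries.

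IL-1α and IL-1β, the products of IL1A and IL1B, bind the receptor IL1R1, which then pairs with the accessory protein IL1RAP and passes the signal through MYD88 and kinases of the IRAK family to NF-kB and AP-1. IL1RN encodes a secreted antagonist that occupies IL1R1 without starting the signal, and IRAK3 encodes a kinase-like protein that dampens it. IL33 is a nuclear alarmin of the same family that signals through IL1RL1 (ST2) with the same accessory protein. In fibroblasts the pathway is known for switching on chemokines and cytokines, among them IL1A and IL1B themselves.

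The 3 clustered genes of chromosome 2 that encode ligands or the antagonist lie at chr2:112773925-112784493 (IL1A, minus strand, 7 exons), chr2:112829751-112836816 (IL1B, minus strand, 7 exons) and chr2:113099315-113134016 (IL1RN, plus strand, 4 exons) in GRCh38 with GENCODE v44. On the same chromosome, IL1R1 spans chr2:102064544-102179874 and IL1RL1 spans chr2:102311502-102352037, both on the plus strand. IL1RAP (chr3:190514051-190659750) and IRAK2 (chr3:10164919-10243745) lie on chromosome 3, IL33 at chr9:6215786-6257983, IRAK1 at chrX:154010506-154019902 and IRAK3 at chr12:66189195-66254622. The RefSeq sequence of GRCh38.p14 for the 250 bases before the start is shown for the 3 members that rose with the cytokines in all 4 groups and for IL1RN, which differed between the CRISPRa groups. Of these genes, IL1B and IL1RN have a RefSeq start that lies inside the gene's GENCODE span. The windows are chr2:112784494-112784743 (minus strand) for IL1A, chr2:112836780-112837029 (minus strand) for IL1B, chr3:10164669-10164918 (plus strand) for IRAK2 and chr2:113117721-113117970 (plus strand) for IL1RN. They are written 5′ to 3′, and capitals mark every match, on either strand, to an AP-1 site (TGANTCA) or a TATA box (TATAAA).
IL1A: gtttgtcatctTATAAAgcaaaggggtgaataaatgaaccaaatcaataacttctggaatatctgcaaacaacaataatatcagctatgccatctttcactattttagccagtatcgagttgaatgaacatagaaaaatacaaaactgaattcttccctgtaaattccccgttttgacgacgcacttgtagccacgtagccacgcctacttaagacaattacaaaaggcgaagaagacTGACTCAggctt
IL1B: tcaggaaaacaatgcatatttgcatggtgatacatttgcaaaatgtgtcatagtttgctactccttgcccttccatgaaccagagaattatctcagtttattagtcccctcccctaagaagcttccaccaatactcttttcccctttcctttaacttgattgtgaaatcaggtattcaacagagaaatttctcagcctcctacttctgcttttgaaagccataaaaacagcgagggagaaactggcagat
IRAK2: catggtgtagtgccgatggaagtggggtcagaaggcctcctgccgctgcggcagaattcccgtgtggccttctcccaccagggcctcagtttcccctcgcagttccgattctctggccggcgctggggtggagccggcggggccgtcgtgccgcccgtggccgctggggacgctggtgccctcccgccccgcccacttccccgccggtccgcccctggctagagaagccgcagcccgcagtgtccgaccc
IL1RN: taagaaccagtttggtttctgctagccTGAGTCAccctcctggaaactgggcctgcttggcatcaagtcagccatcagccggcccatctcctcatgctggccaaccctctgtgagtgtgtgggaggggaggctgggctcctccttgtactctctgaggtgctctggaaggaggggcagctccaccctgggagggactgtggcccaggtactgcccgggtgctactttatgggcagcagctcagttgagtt

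Only these letters were searched, together with an NF-kB site, a CRE (TGACGTCA) and a GLIS site (TGGGGGGT, for the family of GLIS3), in the windows of all 10 members and of 35116 RefSeq promoters of the same length. AP-1 letters were in 3 of the 10 member windows, against 6.57% of all promoters: 12 bases before the start in IL1A, 223 in IL1RN and 191 in IL1RL1. The RefSeq start of IL1RL1 also lies inside its GENCODE span. TATAAA was in the IL1A window, 239 bases before the start, and in 10.7% of all promoters. NF-kB letters were in 9.96% of all promoters and, among the members, in the window of IRAK1 (114 bases before the start). The CRE and GLIS letters were in 1.65% and 1.33% of all promoters and in 0 member windows. These are matches of letters in short windows and say nothing of binding.

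Detection differed widely among the members. IL1B, IL1R1, IL1RAP, IRAK1 and IRAK2 had a count in all 48 libraries and IL1A in 44. IL1RN had a count in 26 libraries, IL33 in 10, IRAK3 in 3 and IL1RL1 in 2. The summed counts over all libraries ran from 296542 for IL1B to 136 for IL1RN, 17 for IL33, 7 for IL1RL1 and 3 for IRAK3. A filter on low counts kept 6 of the 10 members in the CRISPRko arm (IL1A, IL1B, IL1R1, IL1RAP, IRAK1 and IRAK2) and 7 in the CRISPRa arm, where IL1RN passed through the VP64_A libraries. IL1A and IL1B passed through libraries with cytokines, so the number of members called among those tested is a description and supports nothing by itself.

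Levels of different genes were compared as TPM, which corrects for transcript length, given as the mean ± SD of 3 libraries. In H47_Ctrl at 0 h the order was IRAK1 (17 ± 3.43 TPM), IL1RAP (3.63 ± 1.89), IL1R1 (1.69 ± 0.598), IRAK2 (1.67 ± 0.937), IL1B (0.830 ± 0.525) and IL1A (0.173 ± 0.184). Each neighbour below IRAK1 in that order overlapped the next in its libraries, and IRAK1 stood above all of them. At 6 h the order was IL1B (1954 ± 259.8 TPM), IRAK2 (40.04 ± 4.31), IRAK1 (19.1 ± 11.9), IL1A (10.98 ± 2.66), IL1RAP (7.23 ± 3.69) and IL1R1 (1.87 ± 1.16). The libraries of IL1B and of IRAK2 stood above those of every gene after them, IRAK1 overlapped IL1A, and IL1A overlapped IL1RAP. IL1B was the most abundant member with cytokines and, at 0 h, had a lower mean than IRAK1, IL1RAP, IL1R1 and IRAK2 in all 4 groups.

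**Figure D1:**
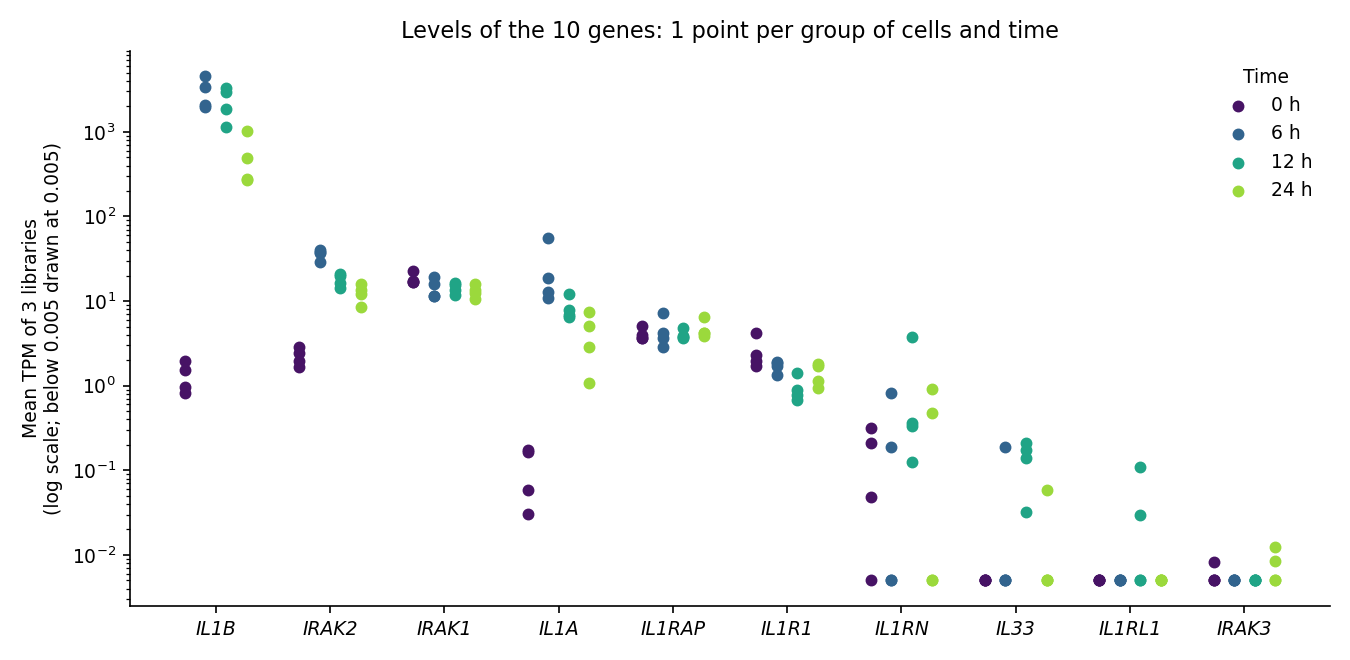
Mean TPM of 3 libraries (log scale) of the 10 genes, 1 point for each of the 4 groups of cells, coloured by hours with TGFβ and IL-1β (0, 6, 12 and 24), with values at or near 0 drawn at the lowest level. IL1B went from 0.830 TPM at 0 h to 1954 TPM at 6 h in H47_Ctrl, IL1A and IRAK2 also had their highest mean at 6 h in each group, and IRAK1 kept between 10.6 and 22.9 TPM over all conditions.

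The first comparison, each time with cytokines against 0 h within a group of cells, asks which members respond to TGFβ and IL-1β. IL1A, IL1B and IRAK2 rose at 6, 12 and 24 h in all 4 groups, and all 3 then fell from 6 to 24 h in all 4 groups. IL1R1 fell in 2 groups, IL1RAP rose at 6 h in 2 groups, and IRAK1 was not called in any contrast. A gene counts as called where edgeR's two-sided quasi-likelihood test, fitted to the estimated counts of an arm's 24 libraries, gave a p below 0.05 after Benjamini-Hochberg adjustment across every gene tested. Log2 differences below come from that fit, with their standard error (SE), and levels within a gene are CPM on TMM-scaled library sizes.

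In H47_Ctrl 4 of 6 tested members were called at 6 h (15.9% of all genes were), 3 at 12 h (19.6%) and 3 at 24 h (10.3%), all higher. In H47_KO the counts were 3 at 6 h (23.9%), 4 at 12 h (27.4%), of which 1 was lower, and 3 at 24 h (15.8%). Of 7 tested in VP64_Ctrl, 4 were called at 6 h (28.8%), 4 at 12 h (26.8%) and 4 at 24 h (16%), with 1 lower at each of the later times. VP64_A had 3 members called at 6 h (17.4%), 4 at 12 h (19.7%) and 3 at 24 h (13.6%), all higher. The 4 at 12 h were IL1A, IL1B, IRAK2 and IL1RN. Since IL1RN passed the filter through the VP64_A libraries where it is high, its call is a description. Between 6 and 24 h, 3 members fell in each group, where 14.6%, 24.2%, 18.4% and 12.5% of all genes were called in H47_Ctrl, H47_KO, VP64_Ctrl and VP64_A. At 6 h the median log2 difference of the 6 tested members was 2.96 in H47_Ctrl and 2.58 in H47_KO. The 7 tested members of the CRISPRa arm had medians of 0.77 in VP64_Ctrl and 1.69 in VP64_A. They include IL1RN, which passed the filter through VP64_A, had 0 counts in VP64_Ctrl at 6 h and itself gave the VP64_A median. These medians are therefore not comparable with those of the CRISPRko arm. The median of all genes lay between -0.10 and -0.01 in the 4 groups.

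IL1B, which encodes the IL-1β precursor, had the largest response of the members. In H47_Ctrl IL1B measured 1.09, 0.644 and 0.270 CPM at 0 h, 1039, 2086 and 2263 at 6 h, 2199, 1197 and 1565 at 12 h and 237, 248 and 270.5 at 24 h. In H47_KO it measured 0.875, 0.577 and 2.48 CPM at 0 h, 3455, 4558 and 3701 at 6 h, 3179.9, 3072 and 3372 at 12 h and 421, 397 and 259 at 24 h. All libraries with cytokines stood above every 0 h library in both groups, and the 6 h and 12 h libraries overlapped in H47_Ctrl and not in H47_KO. VP64_Ctrl had 1.77, 1.09 and 0.445 CPM at 0 h, 4008, 5243 and 6236 at 6 h, 3222, 2272 and 3467 at 12 h and 969.8, 962 and 658 at 24 h. VP64_A had 1.83, 0.623 and 0.166 CPM at 0 h, 1524, 2388 and 2574 at 6 h, 1632, 728 and 1316 at 12 h and 311, 233 and 289.5 at 24 h. The same separation from 0 h held in both CRISPRa groups, with 6 h and 12 h overlapping in VP64_A. At 24 h all 4 groups were below their own 6 h libraries and still above 0 h. In bulk RNA, fewer cells expressing a gene and less RNA per cell cannot be told apart.

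The log2 responses of IL1B in H47_Ctrl were 11.18 (SE 0.59) at 6 h, 11.09 (SE 0.59) at 12 h and 8.38 (SE 0.59) at 24 h. The corresponding values were 11.42 (SE 0.45) at 6 h, 11.15 (SE 0.45) at 12 h and 8.03 (SE 0.45) at 24 h in H47_KO. VP64_Ctrl gave 12.06 (SE 0.45) at 6 h, 11.30 (SE 0.45) at 12 h and 9.51 (SE 0.45) at 24 h, and VP64_A gave 11.03 (SE 0.50) at 6 h, 10.23 (SE 0.50) at 12 h and 8.09 (SE 0.50) at 24 h. The largest adjusted p among these 12 was 3.79e-15. From 6 to 24 h IL1B changed by -2.79 (SE 0.28) in H47_Ctrl, -3.39 (SE 0.28) in H47_KO, -2.55 (SE 0.30) in VP64_Ctrl and -2.94 (SE 0.30) in VP64_A. The size of the response rests on few counts at 0 h: without H47_KO 0 h replicate 3 the 6 h value was 12.36, and without VP64_A 0 h replicate 1 it was 12.23. Without the same libraries the 12 h values were 12.09 and 11.43, and the 24 h values were 8.94 and 9.29.

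IL1A, which encodes the cell-associated ligand IL-1α, responded in the same groups at a far lower level. H47_Ctrl had 0, 0.644 and 0.270 CPM at 0 h, 18.2, 23.9 and 18.6 at 6 h, 22.1, 7.82 and 8.67 at 12 h and 2.64, 1.38 and 2.34 at 24 h. H47_KO had 0, 0.144 and 0.130 CPM at 0 h, 25.5, 36.6 and 32.9 at 6 h, 18.2, 17.4 and 14.2 at 12 h and 7.88, 9.20 and 6.33 at 24 h. In both groups the libraries at each time with cytokines were above all those at 0 h, where the estimated counts were 0, 4 and 1 in H47_Ctrl and 0, 1 and 1 in H47_KO. In VP64_Ctrl IL1A measured 0.252, 0.0839 and 0.296 CPM at 0 h, 122, 141 and 135 at 6 h, 28.96, 24.3 and 24.9 at 12 h and 15.2, 14.96 and 10.3 at 24 h. In VP64_A it measured 0.174, 0 and 0 CPM at 0 h, 42.6, 46.2 and 35.1 at 6 h, 18.04, 13.3 and 12.2 at 12 h and 5.96, 6.45 and 6.89 at 24 h. The 6 h libraries of VP64_Ctrl were the highest of all 48, and the 0 h counts of the CRISPRa groups were again few, 3, 1 and 2 in VP64_Ctrl and 2, 0 and 0 in VP64_A.

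Because 0 h held at most 4 counts in a library, the IL1A responses were also taken as ratios of pooled counts, with 95% intervals that cover counting error only. At 6 h the ratio was 69.2 (29.4 to 215) in H47_Ctrl, 316 (86.7 to 2627) in H47_KO, 660.0 (303 to 1801) in VP64_Ctrl and 532 (147 to 4406) in VP64_A. The fitted log2 responses of IL1A in H47_Ctrl were 5.99 (SE 0.74, adjusted p = 1.38e-11) at 6 h, 5.36 (SE 0.75, adjusted p = 9.72e-10) at 12 h and 2.88 (SE 0.79, adjusted p = 0.00286) at 24 h. They were 7.97 (SE 1.12) at 6 h, 7.07 (SE 1.12) at 12 h and 5.97 (SE 1.12) at 24 h in H47_KO, 9.24 (SE 0.54) at 6 h, 6.92 (SE 0.55) at 12 h and 5.96 (SE 0.55) at 24 h in VP64_Ctrl and 8.71 (SE 0.91) at 6 h, 7.18 (SE 0.92) at 12 h and 6.06 (SE 0.92) at 24 h in VP64_A. In H47_Ctrl single libraries moved these values: without 0 h replicate 1 they were 5.25, 4.62 and 2.14, without 0 h replicate 2 they were 7.43, 6.80 and 4.32, and without 12 h replicate 1 the 12 h value was 4.72. In VP64_A they were 10.87, 9.35 and 8.22 without 0 h replicate 1. All of these kept an adjusted p under 0.05, whereas limma on log2(TPM + 1) gave 0.82 (adjusted p = 0.136) at 24 h in H47_Ctrl. From 6 to 24 h IL1A fell in each group, by 3.11, 2.00, 3.28 and 2.65 on the log2 scale in H47_Ctrl, H47_KO, VP64_Ctrl and VP64_A.

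IRAK2, a kinase-like adaptor needed for sustained signalling from the IL-1 receptor, was called higher with cytokines at every time in every group, as no other IRAK gene was. H47_Ctrl had 1.63, 3.22 and 5.67 CPM at 0 h, 68.7, 107 and 94.3 at 6 h, 59.1, 41.4 and 43 at 12 h and 26.02, 17.5 and 17.8 at 24 h. H47_KO had 1.92, 3.17 and 6.00 CPM at 0 h, 79.1, 94.1 and 84.4 at 6 h, 40.7, 45.7 and 39.9 at 12 h and 27.5, 17.2 and 22.4 at 24 h. Each time point with cytokines stood above 0 h, and the 24 h libraries stood below all 12 h libraries. IRAK2 measured 4.20, 3.19 and 5.93 CPM at 0 h, 114, 102 and 94.1 at 6 h, 59.3, 46.1 and 49.5 at 12 h and 41.6, 31.2 and 32.8 at 24 h in VP64_Ctrl. In VP64_A it measured 2.35, 3.74 and 6.98 CPM at 0 h, 102, 104 and 92.8 at 6 h, 34.9, 36.8 and 38.8 at 12 h and 30.8, 36.7 and 38.05 at 24 h. Here too 6 h was highest, but the 12 h and 24 h libraries of VP64_A overlapped. At 6 h IRAK2 was higher by 4.80 (SE 0.32, adjusted p = 1.75e-14) in H47_Ctrl, 4.44 (SE 0.29, adjusted p = 3.66e-14) in H47_KO, 4.58 (SE 0.23, adjusted p = 1.32e-16) in VP64_Ctrl and 4.61 (SE 0.24, adjusted p = 2.18e-16) in VP64_A. By 24 h the log2 response was 2.73 (SE 0.34), 2.57 (SE 0.30), 3.06 (SE 0.23) and 3.13 (SE 0.24) in the same order, each called. Without H47_KO 0 h replicate 3 the 6 h response of H47_KO was 5.03.

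**Figure D2:**
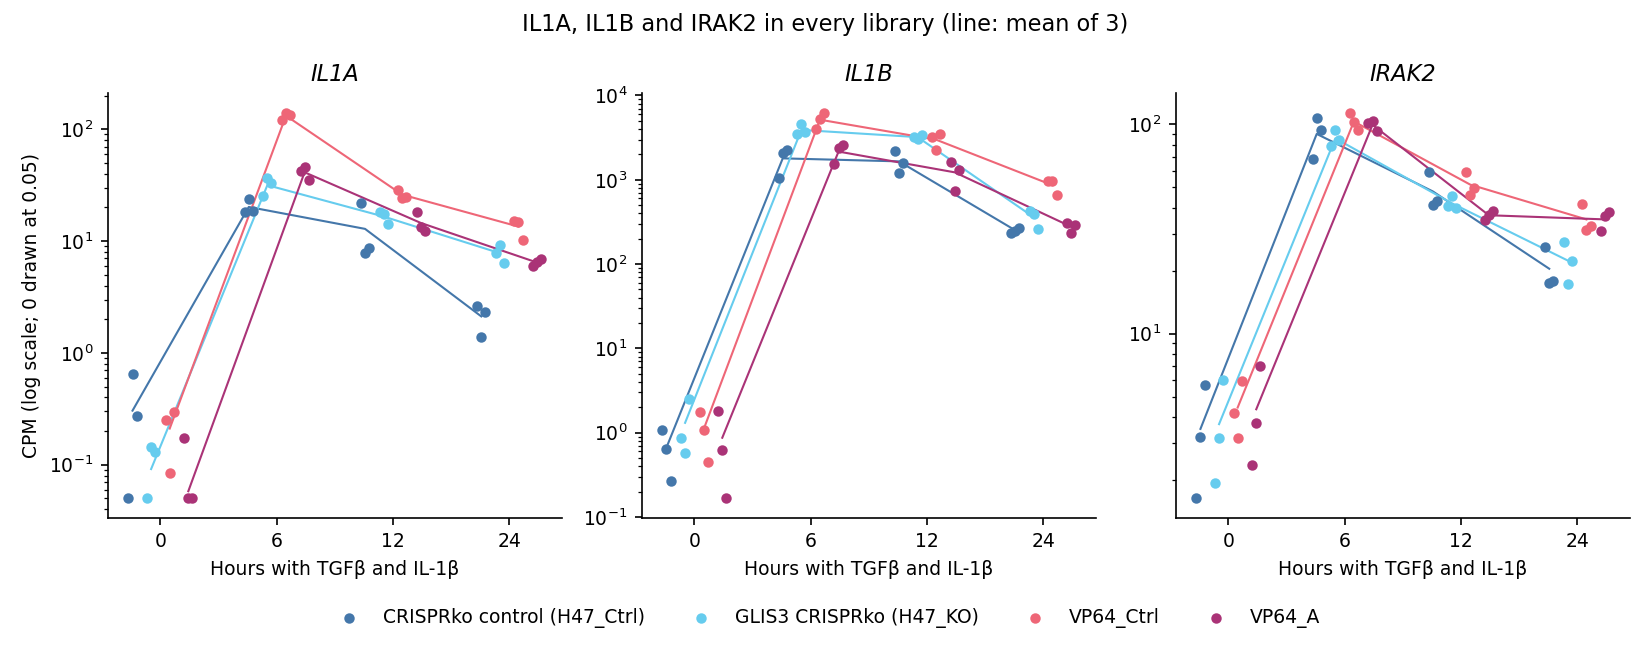
CPM of IL1A, IL1B and IRAK2 in every library (points, 3 per condition; lines join the means) of the 4 groups of cells at 0, 6, 12 and 24 h, on log axes with a level of 0 drawn at 0.05. The 3 genes peak at 6 h in each group, and at 6 h the VP64_Ctrl libraries of IL1A (122 to 141 CPM) lie above all others.

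The receptor chains did not share this pattern. IL1R1, which encodes the signalling receptor for both ligands, was lower at 12 h in H47_KO and at 12 and 24 h in VP64_Ctrl than at 0 h. In VP64_Ctrl IL1R1 measured 10.3, 7.63 and 11.9 CPM at 0 h, 6.52, 8.64 and 6.47 at 6 h, 3.94, 3.24 and 3.11 at 12 h and 4.74, 5.09 and 4.95 at 24 h. In VP64_A it measured 7.39, 8.97 and 6.65 CPM at 0 h, 5.87, 5.35 and 11.2 at 6 h, 8.06, 3.73 and 5.54 at 12 h and 9.07, 5.43 and 7.52 at 24 h. All 12 h and 24 h libraries of VP64_Ctrl were below its 0 h libraries, whereas those of VP64_A overlapped 0 h. H47_Ctrl had 4.08, 4.19 and 7.56 CPM at 0 h, 7.73, 4.05 and 5.52 at 6 h, 2.54, 3.26 and 2.17 at 12 h and 3.58, 3.69 and 2.58 at 24 h. H47_KO had 4.72, 5.33 and 7.17 CPM at 0 h, 4.20, 5.08 and 8.54 at 6 h, 3.25, 1.74 and 2.62 at 12 h and 2.20, 3.26 and 3.39 at 24 h. In these groups all 12 h and 24 h libraries were also below 0 h, and the 6 h libraries overlapped 0 h.

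The log2 response of IL1R1 at 12 h was -1.50 (SE 0.32, adjusted p = 0.000481) in VP64_Ctrl and -1.21 (SE 0.38, adjusted p = 0.0166) in H47_KO, against -0.92 (SE 0.43, adjusted p = 0.125) in H47_Ctrl and -0.49 (SE 0.30, adjusted p = 0.287) in VP64_A. At 24 h it was -0.98 (SE 0.29, adjusted p = 0.0192) in VP64_Ctrl. It was not called in H47_KO (-0.96, SE 0.37, adjusted p = 0.0702), H47_Ctrl (-0.64, SE 0.40, adjusted p = 0.396) or VP64_A (-0.03, SE 0.30, adjusted p = 0.965). The H47_KO call was lost without 0 h replicate 3 (-0.98, adjusted p = 0.0877) or 12 h replicate 2 (-0.97, adjusted p = 0.106), and with limma on log2(TPM + 1) (-0.79, adjusted p = 0.0521) or log2(TPM + 0.1) (-1.35, adjusted p = 0.0509). The 24 h call of VP64_Ctrl was lost without 0 h replicate 3 (-0.85, adjusted p = 0.0702) or 24 h replicate 1 (-0.95, adjusted p = 0.0784). The antisense gene IL1R1-AS1 overlaps IL1R1 on the opposite strand, and since the strand setting of the counting is not given in the sources used here, reads of the 2 genes cannot be told apart.

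IL1RAP, the accessory chain that IL1R1 and IL1RL1 share, was called higher at 6 h in H47_Ctrl and VP64_Ctrl and in no other contrast with 0 h. H47_Ctrl had 5.99, 7.24 and 1.89 CPM at 0 h and 13.6, 9.52 and 11.3 at 6 h, and VP64_Ctrl had 5.63, 3.77 and 6.08 at 0 h and 7.24, 9.41 and 10.6 at 6 h. The 0 h and 6 h libraries of each group did not overlap. The log2 response was 1.11 (SE 0.32, adjusted p = 0.0131) in H47_Ctrl and 0.77 (SE 0.28, adjusted p = 0.0364) in VP64_Ctrl. Both calls depended on single libraries. In H47_Ctrl the value was 0.80 (adjusted p = 0.0910) without 0 h replicate 3 and 0.97 (adjusted p = 0.0674) without 6 h replicate 1, and limma gave 0.83 (adjusted p = 0.255) on log2(TPM + 1) and 1.02 (adjusted p = 0.270) on log2(TPM + 0.1). In VP64_Ctrl it was 0.59 (adjusted p = 0.151) without 0 h replicate 2, 0.72 (adjusted p = 0.115) without 6 h replicate 2 and 0.68 (adjusted p = 0.103) without 6 h replicate 3. The VP64_Ctrl call was also lost without a filter on low counts (adjusted p = 0.0852) and in a fit of only the libraries compared (adjusted p = 0.0824). On the TPM scale the direction in VP64_Ctrl turned, to -0.15 on log2(TPM + 1) and -0.16 on log2(TPM + 0.1), where the median of all genes moved by -0.65 and -0.81 in that contrast. The log2 differences at 6 h in H47_KO and VP64_A were 0.72 (SE 0.33, adjusted p = 0.116) and 0.21 (SE 0.29, adjusted p = 0.682). Over all conditions IL1RAP kept between 1.89 and 13.6 CPM in a library.

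**Figure D3:**
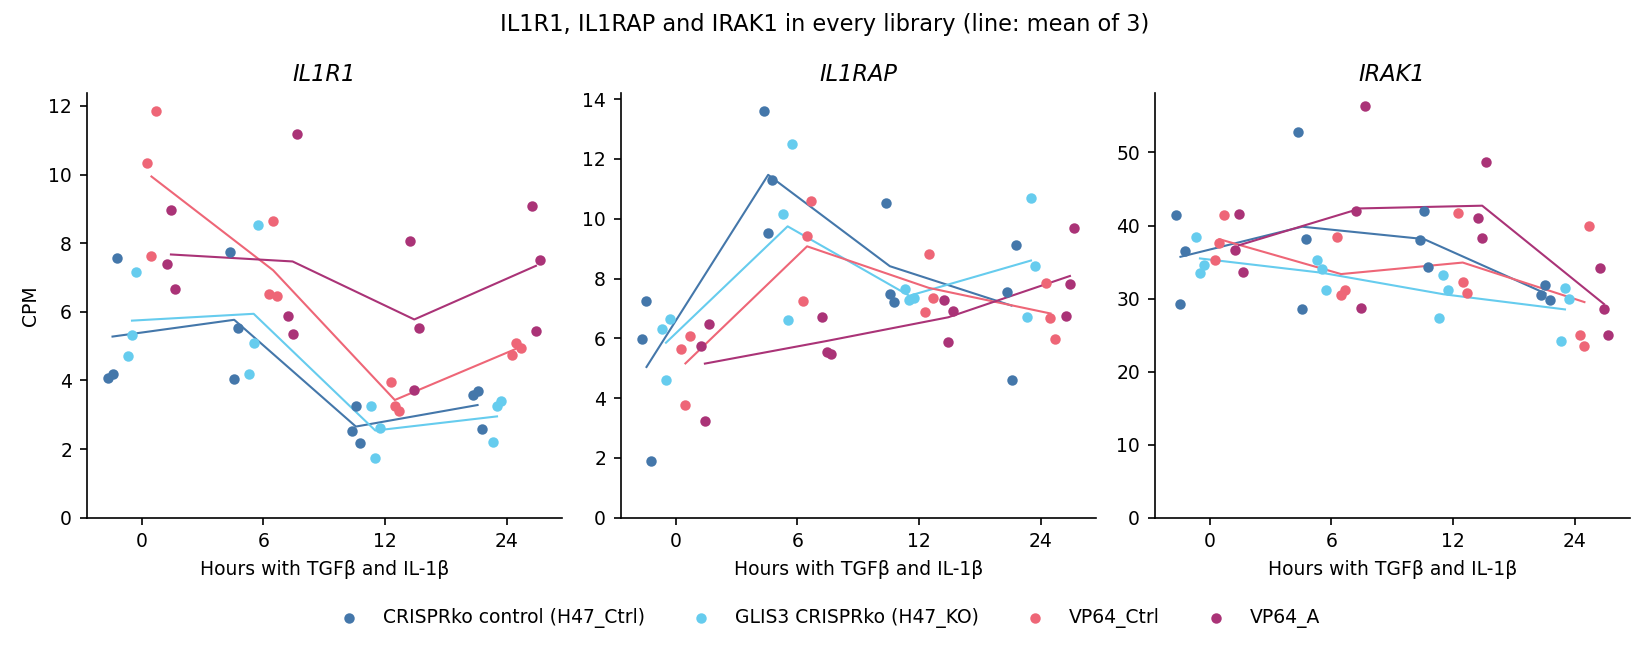
CPM of IL1R1, IL1RAP and IRAK1 in every library (points, 3 per condition; lines join the means) of the 4 groups of cells at 0, 6, 12 and 24 h, on linear axes that start at 0. IL1R1 in VP64_Ctrl goes from 7.63 to 11.9 CPM at 0 h to 3.11 to 3.94 CPM at 12 h, and IRAK1 stays between 23.5 and 56.4 CPM in all libraries.

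IRAK1, a kinase recruited to the receptor complex through IRAK4, was called in 0 contrasts with 0 h in any group by edgeR or DESeq2. In edgeR 0 of these contrasts had an unadjusted p under 0.05. With limma it was lower at 6 h in VP64_Ctrl, by -0.91 (adjusted p = 0.0116) on log2(TPM + 1) and -0.96 (adjusted p = 0.0134) on log2(TPM + 0.1), where the median of all genes moved by -0.65 and -0.81. Its mean level lay between 28.5 and 42.7 CPM over the 16 conditions. Of its changes from 6 to 24 h, 1 had an unadjusted p under 0.05, in VP64_A (-0.51, SE 0.21, adjusted p = 0.110). IRAK3 had 1 count in each of 3 libraries and was at 0 in all others, which is below what can be compared.

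IL33 and IL1RL1, the alarmin and its receptor chain, were near or below the limit of detection. IL33 had at most 3 counts in a library, seen at 12 h in all 4 groups, at 6 h in VP64_Ctrl and at 24 h in VP64_A. IL1RL1 had 6 counts in VP64_A 12 h replicate 2 and 1 count in a VP64_Ctrl library of 12 h. Its locus overlaps IL18R1 on the same strand, so reads there cannot be assigned to either gene with certainty. At this depth, where a count of 0 allows up to 3 counts in a library, no difference in these genes was detectable.

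The comparison of H47_KO with H47_Ctrl at each time asks how the members depend on GLIS3, a zinc finger transcription factor of the GLI-related family. IL1B was higher in H47_KO when the 4 times were averaged, and no member was called at a single time. Averaged over the times, IL1B was higher by 0.85 (SE 0.21, adjusted p = 0.0131), 1 of 6 tested members called, against 3.07% of all genes. At the single times 0 of 6 members were called by edgeR, against 0.301% of all genes at 0 h, 0.319% at 6 h, 0.0821% at 12 h and 0.21% at 24 h. An unadjusted p under 0.05 was found in 4 of the 24 contrasts, for IL1B at 6 and 12 h and IL1A at 6 and 24 h, and DESeq2 called 2 members, IL1A and IL1B.

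At 6 h the IL1B libraries of H47_KO (3455, 4558 and 3701 CPM) were all above those of H47_Ctrl (1039, 2086 and 2263), and at 12 h they were again all above. At 24 h the groups overlapped. The log2 difference of IL1B was 1.11 (SE 0.28, adjusted p = 0.0820) at 6 h, 0.93 (SE 0.28, adjusted p = 0.262) at 12 h and 0.51 (SE 0.29, adjusted p = 0.555) at 24 h. DESeq2 gave 1.13 (adjusted p = 0.000969) at 6 h and 0.93 (adjusted p = 0.0430) at 12 h. The averaged difference lost its call without H47_KO 0 h replicate 3 (0.62, adjusted p = 0.170), the library with the highest IL1B level of that group at 0 h, and also with limma on log2(TPM + 0.1) (0.84, adjusted p = 0.0502). That library also stood apart in composition, with a TMM scaling factor of 1.52 against 0.972 and 1.02 in replicates 1 and 2 and with its most abundant genes taking 30.7% of the counts against 39.3% and 39.01%. Without it IL1B was called at 6 h (1.10, adjusted p = 0.0474). Other libraries also stood apart in scaling factor and share of the most abundant genes. These values were 1.86 and 23.1% in VP64_Ctrl 0 h replicate 3 and 1.52 and 31.4% in H47_KO 24 h replicate 3. In H47_Ctrl 6 h replicate 1, the lowest of that group in IL1B at 6 h, they were 1.34 and 33.8%.

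Markers of cell types moved with the same groups. In the average over times 2 of 8 fibroblast markers were lower in H47_KO and 0 were higher, against 3.07% of all genes called. DCN differed by -1.30 (SE 0.12, edgeR adjusted p = 1.01e-08) and COL3A1 by -0.61 (SE 0.16, adjusted p = 0.0226). Of 7 leukocyte markers 2 were tested, and CD68, a lysosomal protein abundant in macrophages, was higher in H47_KO by 0.68 (SE 0.10, adjusted p = 4.47e-05), while CSF1R, a macrophage receptor, differed by 0.21 (SE 0.47, adjusted p = 0.881). The leukocyte markers summed to 28.3 to 53.7 CPM in H47_KO and to 17.4 to 32.6 CPM in H47_Ctrl, with AIF1, LYZ and TYROBP at 0 in both. The part of these genes in the IL1B result was not tested.

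IL1A was measured at 7.88, 9.20 and 6.33 CPM in H47_KO and 2.64, 1.38 and 2.34 CPM in H47_Ctrl at 24 h. The libraries did not overlap, and the log2 difference was 1.74 (SE 0.42, adjusted p = 0.0527). DESeq2 called it (1.75, adjusted p = 0.0119), as did edgeR without a filter on low counts (1.74, adjusted p = 0.000710) and limma on log2(TPM + 1) (1.54, adjusted p = 0.0270). Leaving out H47_KO 24 h replicate 1 also brought it under the threshold (1.71, adjusted p = 0.0463), as did leaving out H47_Ctrl 0 h replicate 1 or 2 or any of the 12 h replicates of H47_Ctrl, with adjusted p from 0.0209 to 0.0477. Other choices did not. Of the 6 fits without a 24 h library of these groups, 5 left it uncalled, with an adjusted p up to 0.238. Among the other alternatives the adjusted p reached 0.214. At 6 h IL1A differed by 0.63 (SE 0.29, adjusted p = 0.406) and at 12 h by 0.35 (SE 0.31, adjusted p = 0.837).

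For the receptors and kinases the averaged difference between H47_KO and H47_Ctrl had 95% intervals of -0.40 to 0.38 on the log2 scale for IL1R1, -0.34 to 0.31 for IL1RAP and -0.24 to 0.30 for IRAK2. The estimate for IRAK1 was -0.18 (SE 0.09, adjusted p = 0.317). IL1RN had 4, 4 and 0 counts in H47_KO and 1, 1 and 1 in H47_Ctrl at 12 h, and 3, 2 and 3 against 0, 0 and 0 at 24 h. These counts are at or near the floor of 3 counts in a library, and IL1RN was not tested in this arm.

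The comparison of VP64_A with VP64_Ctrl asks the same where GLIS3 was measured higher, by 3.05 on the log2 scale averaged over times in VP64_A. IL1A and IL1B were lower, and IL1RN was higher, in VP64_A at 6, 12 and 24 h and in the average over times. IRAK1, IRAK2, IL1R1 and IL1RAP were not called at any time. IL1RN was tested only through the VP64_A libraries, where it is high, so it is left out of the counts that follow. At 6, 12 and 24 h 2 of the 6 members tested in both arms were called, against 3.76%, 4.31% and 4.13% of all genes, and in the average 2 against 18.4%. At 0 h 0 members were called by edgeR, against 9.41% of all genes, 0 had an unadjusted p under 0.05, and no other tool tried called any.

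At 6 h IL1A measured 42.6, 46.2 and 35.1 CPM in VP64_A and 122, 141 and 135 CPM in VP64_Ctrl. The groups did not overlap at 6, 12 or 24 h, with VP64_A lower each time. The log2 difference was -1.67 (SE 0.17, adjusted p = 5.49e-08) at 6 h, -0.87 (SE 0.20, adjusted p = 0.00466) at 12 h and -1.04 (SE 0.23, adjusted p = 0.00348) at 24 h. At 12 h limma did not call it, with -0.83 (adjusted p = 0.102) on log2(TPM + 1) and -0.92 (adjusted p = 0.284) on log2(TPM + 0.1).

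IL1B measured 1524, 2388 and 2574 CPM in VP64_A at 6 h and 4008, 5243 and 6236 CPM in VP64_Ctrl. Here too all libraries of VP64_A were below those of VP64_Ctrl at 6, 12 and 24 h. IL1B differed by -1.25 (SE 0.30, adjusted p = 0.0106) at 6 h, -1.29 (SE 0.30, adjusted p = 0.00748) at 12 h and -1.64 (SE 0.30, adjusted p = 0.000620) at 24 h on the log2 scale. The 6 h call was lost without VP64_A 6 h replicate 1 (-1.06, adjusted p = 0.0922), without VP64_Ctrl 6 h replicate 3 (-1.09, adjusted p = 0.0732) and with limma on log2(TPM + 0.1) (-1.15, adjusted p = 0.142), and the 12 h call was lost without VP64_A 12 h replicate 2 (-1.02, adjusted p = 0.0804). Averaged over times, IL1A differed by -1.18 (SE 0.28, adjusted p = 0.000658) and IL1B by -1.10 (SE 0.20, adjusted p = 8.94e-05). Of 3 early IL-1 response genes listed, NFKBIZ was lower in VP64_A at 0 h (-1.39, adjusted p = 0.000450), 6 h (-0.73, adjusted p = 0.0278) and 12 h (-0.91, adjusted p = 0.00392) and was not called at 24 h (-0.55, adjusted p = 0.137). NFKBIA was called lower in the average over times (-0.30, adjusted p = 0.0424) and at no single time, and TNFAIP3 was called in none of these (average -0.19, adjusted p = 0.222).

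**Figure D4:**
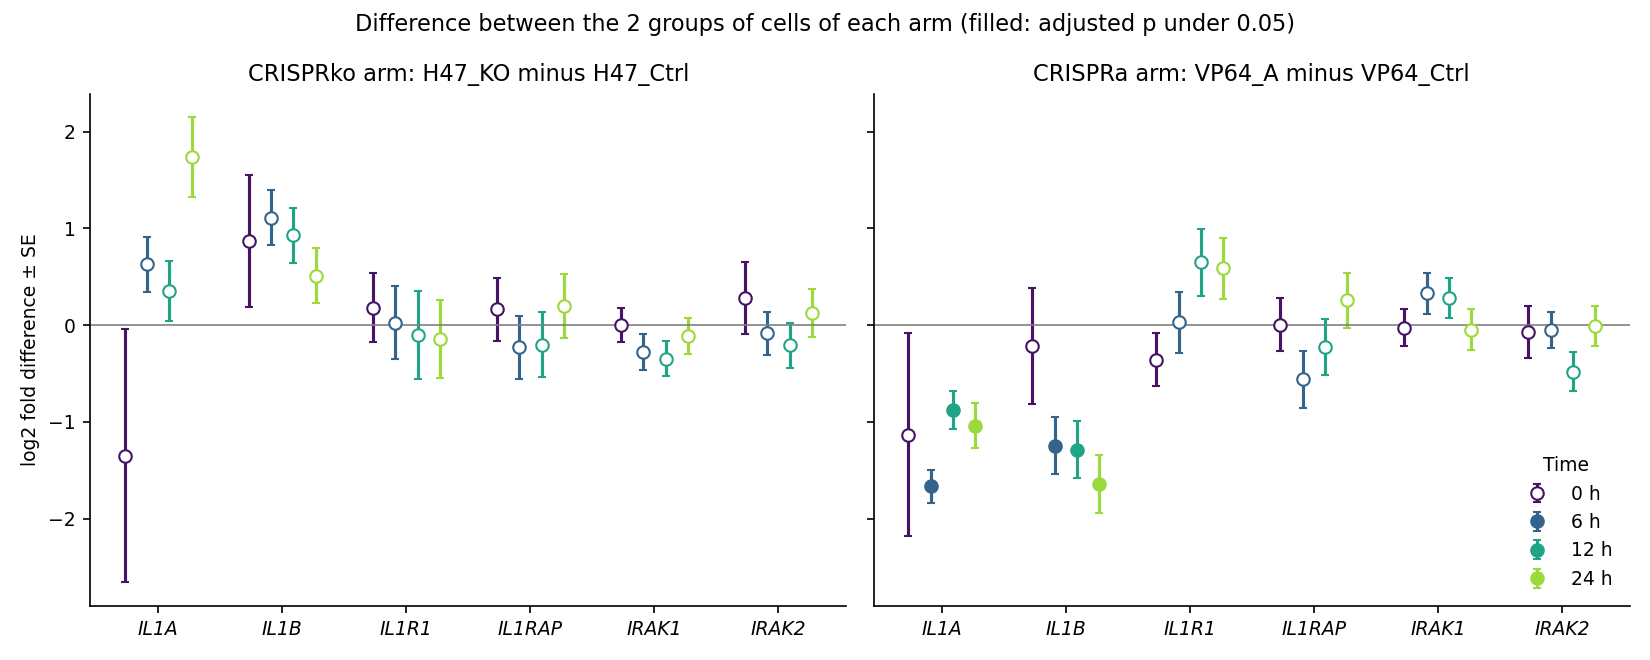
Log2 difference of the 6 members tested in both arms, H47_KO against H47_Ctrl and VP64_A against VP64_Ctrl, at 0, 6, 12 and 24 h, with bars of 1 SE and filled points where the edgeR adjusted p was under 0.05. IL1A and IL1B lie below 0 at 6, 12 and 24 h in the CRISPRa arm (IL1A -1.67 at 6 h) and above 0 at these times in the CRISPRko arm (IL1A 1.74 at 24 h).

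IL1RN, the receptor antagonist, was rare in all groups and most frequent in VP64_A. Its estimated counts in VP64_A were 2, 6 and 0 at 0 h, 2, 7 and 5 at 6 h, 12, 42 and 17 at 12 h and 5, 2 and 9 at 24 h. In VP64_Ctrl they were 0, 1 and 2 at 0 h, 0, 0 and 0 at 6 h, 1, 0 and 1 at 12 h and 0, 0 and 0 at 24 h. The groups overlapped at 0 h and did not overlap at the later times. The 12 h libraries of VP64_A, at 4.61, 5.05 and 3.93 CPM, were the highest of the series, and within VP64_A IL1RN rose from 0 to 12 h by 3.78 (SE 0.79, adjusted p = 0.000265) on the log2 scale (5.14 without 0 h replicate 2).

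At 12 h the pooled counts of VP64_A were 32.98 times those of VP64_Ctrl after scaling, with a 95% counting interval of 8.80 to 278 that rests on 2 counts in VP64_Ctrl. The adjusted p of that difference was 0.000910, and 0.0160 without VP64_Ctrl 12 h replicate 2. At 6 and 24 h VP64_Ctrl had 0 counts, so VP64_A can only be set against a floor of 3 counts in a library. The mean of VP64_A was 1.09 times that floor at 6 h and 1.90 times at 24 h. At 6 h its lowest library (0.419 CPM) lay below the mean floor of 0.987 CPM. The edgeR adjusted p of the difference between the groups was 0.0467 at 6 h and 0.0132 at 24 h. The 6 h call was lost with 5 of the 6 libraries left out in turn, that is VP64_A replicates 2 and 3 and VP64_Ctrl replicates 1, 2 and 3, with adjusted p from 0.0939 to 0.239, and with a replicate block (adjusted p = 0.0642). The 24 h call was lost without VP64_A replicate 3, VP64_Ctrl replicate 1 or VP64_Ctrl replicate 3, with adjusted p from 0.0643 to 0.0795. Since IL1RN entered the test only through the group where it is high, these p-values are a description beside the counts.

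A keratinocyte gene moved with the same group. KRT14, a keratin of basal keratinocytes, measured 50.7, 62.9 and 78.97 CPM in VP64_A and 4.33, 6.84 and 2.83 CPM in VP64_Ctrl at 12 h. Averaged over times it was higher in VP64_A by 2.80 (SE 0.14, edgeR adjusted p = 6.64e-17) on the log2 scale. The partner keratin KRT5 had at most 1 count in any VP64_A library and KRT1 was at 0. KRT10, the other keratinocyte marker tested, had counts in all 48 libraries, at 4.54 to 13.5 CPM. It was not called between VP64_A and VP64_Ctrl at any time or in the average. Of the 2 leukocyte markers tested, CSF1R was higher in VP64_A at 24 h (2.97, SE 0.66, adjusted p = 0.00195) and in the average (1.33, SE 0.31, adjusted p = 0.00210), and CD68 was lower at 0 h (-0.81, adjusted p = 0.01005), 6 h (-0.84, adjusted p = 0.0217) and 12 h (-0.74, adjusted p = 0.0352) and in the average (-0.76, SE 0.11, adjusted p = 1.53e-06). CSF1R had at most 12 counts in a VP64_Ctrl library and entered the test through the VP64_A libraries, so its p-values are a description. The leukocyte markers summed to 18.1 to 53.6 CPM in VP64_A and to 30.2 to 81.7 CPM in VP64_Ctrl, with AIF1, LYZ and TYROBP at 0. Of 8 fibroblast markers 4 were higher in VP64_A in the average (COL1A1, COL1A2, COL3A1 and PDGFRB) and 3 were lower (DCN, LUM and THY1), against 18.4% of all genes called. KRT14 was already higher at 0 h, at 55.7, 70.5 and 76.6 CPM in VP64_A against 7.82, 11.5 and 6.37 CPM in VP64_Ctrl. The part of these genes in the IL1RN, IL1A and IL1B results was not tested.

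**Figure D5:**
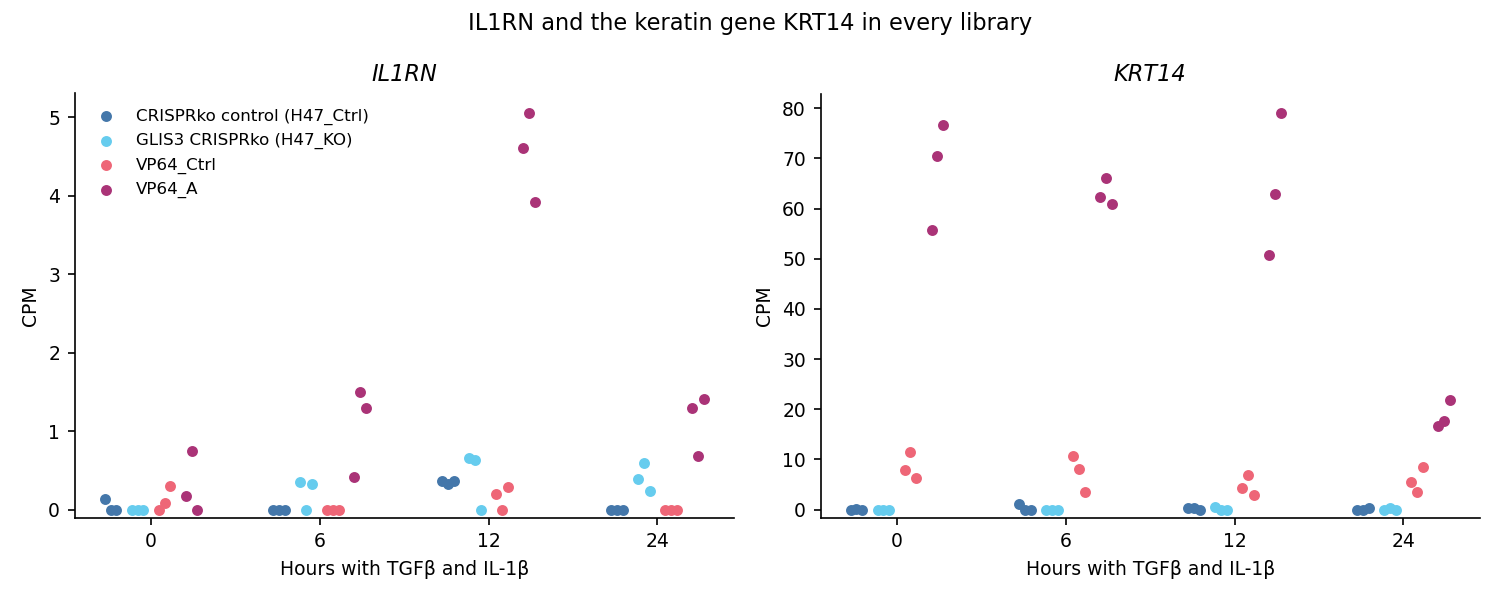
CPM of IL1RN (left) and KRT14 (right) in every library (points, 3 per condition) of the 4 groups of cells at 0, 6, 12 and 24 h, on linear axes. IL1RN reaches 3.93 to 5.05 CPM in VP64_A at 12 h, and KRT14 lies at 50.7 to 79.0 CPM at that time in VP64_A against 2.83 to 6.84 CPM in VP64_Ctrl.

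Of the members that were not called, IL1R1 differed between VP64_A and VP64_Ctrl by 0.65 (SE 0.34, adjusted p = 0.401) at 12 h and 0.59 (SE 0.32, adjusted p = 0.393) at 24 h. The 95% interval of its averaged difference was -0.08 to 0.54 on the log2 scale. IRAK2 differed by -0.48 (SE 0.20, adjusted p = 0.216) at 12 h, and its averaged difference had an interval of -0.37 to 0.06. The intervals of the averages were -0.41 to 0.15 for IL1RAP and -0.07 to 0.34 for IRAK1. These intervals do not show equal levels.

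Whether a response itself differed between the guides was tested as the interaction of guide and time. By edgeR 0 of 6 members were called in the CRISPRko arm, where 0.00912% of all genes were called at 6 h and 0% at 12 and 24 h, and 1 of 18 contrasts had an unadjusted p under 0.05 (IL1A at 24 h, 3.09, SE 1.37, adjusted p = 0.836). In the CRISPRa arm 0 of 7 were called, where 0.0911%, 0.264% and 0.209% of all genes were called at 6, 12 and 24 h, and 4 of 21 contrasts had an unadjusted p under 0.05 (DESeq2 called 0 members in either arm). These were IL1B at 24 h (-1.42, SE 0.67, adjusted p = 0.675), IL1R1 at 12 h (1.01, SE 0.44, adjusted p = 0.385) and 24 h (0.95, SE 0.42, adjusted p = 0.652), and IL1RN at 24 h, whose fitted value rests on 0 counts in VP64_Ctrl. With limma on log2(TPM + 1) 2 members were called in the CRISPRa arm, IL1B at 24 h (-1.47, adjusted p = 0.0346) and IL1RN at 12 h (1.95, adjusted p = 0.00193). IL1RN is among the 7 members only through the VP64_A libraries where it is high, so its values here are a description. A response called in 1 group and not in the other, as for IL1R1 and IL1RAP above, is not shown to differ between the groups by edgeR.

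Other genes of the pathway were counted in 3 lists. Of 15 other ligands and receptors of the family 2 were tested, IL36G and SIGIRR. IL36G, an epithelial ligand of the family, had 0 or 1 count in each 0 h library and 5 to 39 counts over the treated libraries of 6 and 12 h. It was called higher at 6 and 12 h and lower from 6 to 24 h in all 4 groups. IL36G passed the filter on low counts through the libraries with cytokines where it is high, so these calls are a description beside the counts. SIGIRR, an inhibitory receptor, was lower in VP64_A in the average over times (-0.69, SE 0.19, adjusted p = 0.00816).

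Of 21 genes of signalling next to the receptor 19 were tested. At 6 h 7 were higher and 1 lower in H47_Ctrl, against 15.9% of all genes called, and 5 and 0 in H47_KO, a share near the 23.9% of all genes. In VP64_Ctrl 7 were higher and 1 lower, against 28.8% of all genes, and in VP64_A 7 and 1, against 17.4%. The medians over the tested genes were 0.27, 0.19, 0.43 and 0.53 on the log2 scale. TIFA, an adaptor that binds TRAF6, and MAP3K8, a kinase downstream of the IKK complex, rose at 6, 12 and 24 h in all 4 groups. The 6 h responses of TIFA were 3.32, 3.52, 3.41 and 3.02 in H47_Ctrl, H47_KO, VP64_Ctrl and VP64_A, and those of MAP3K8 were 3.88, 4.07, 3.11 and 3.02. TNIP2, which binds the MAP3K8 complex, rose at 6 h by 1.66, 1.53, 1.56 and 1.25 in the same order. MYD88, the adaptor of the receptor itself, rose at 12 and 24 h in the CRISPRa groups, with 0.70 (SE 0.19) and 1.35 (SE 0.19) at 12 h in VP64_Ctrl and VP64_A. It was lower in VP64_A at 0 h (-0.68, SE 0.19, adjusted p = 0.0203). In the average over times 1 gene was higher and 3 were lower in VP64_A (ECSIT higher, MAP3K8, PELI3 and TNIP2 lower). That share was near the 18.4% of all genes called, and the median was -0.15 against -0.00370 over all genes. Between the CRISPRko groups 0 of 19 were called by edgeR, at any time or in the average, against at most 3.07% of all genes.

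Of 15 genes for the processing and release of IL-1 11 were tested. At 6 h 1 was higher in H47_Ctrl and 2 were higher and 3 lower in H47_KO (15.9% and 23.9% of all genes called). In VP64_Ctrl 4 were higher and 1 lower, and in VP64_A 2 were higher (28.8% and 17.4%). At 24 h 1 was higher and 1 lower in H47_Ctrl (10.3%) and in VP64_Ctrl (16%). H47_KO then had 1 higher and 4 lower (15.8%), and VP64_A 2 higher and 1 lower (13.6%). NLRP3, the sensor of an inflammasome that activates IL-1β, rose at 6 h in all 4 groups, by 2.60, 2.46, 2.43 and 3.51 on the log2 scale in H47_Ctrl, H47_KO, VP64_Ctrl and VP64_A. PYCARD, the inflammasome adaptor, was lower at 24 h than at 0 h in all 4 groups (-1.37, -0.98, -1.83 and -1.20). CASP1, which cleaves the IL-1β precursor, was called at 6 and 12 h in VP64_Ctrl, with -0.83 (SE 0.29, adjusted p = 0.0286) and -1.14 (SE 0.29, adjusted p = 0.00293). At 0 h NLRP3 (-2.20, SE 0.50, adjusted p = 0.00207) and S100A13 (-0.56, SE 0.17, adjusted p = 0.0347), a carrier in IL-1α export, were lower in VP64_A, 2 of 11 against 9.41% of all genes. Between the CRISPRko groups 0 of 11 were called by edgeR, at any time or in the average, against at most 3.07% of all genes. No protein was measured, so these data hold nothing on IL-1 that was cleaved or released.

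The genes whose pattern was most like that of each member were sought over the means of the 16 conditions (log2(CPM + 1), Pearson's r, 10691 genes tested in both arms), as a description without a test, since all conditions share the same time course and cells. IL1B was closest to CXCL1 (r = 0.992), CXCL3 (0.989) and FNDC3B (0.987). IL1A was closest to CXCL2 (0.961), PPIF (0.961) and CXCL3 (0.959), and IRAK2 to CXCL2 (0.985), IL6 (0.984) and TIFA (0.984). For the receptors the values were lower, up to 0.934 for IL1R1 (ANKRD13A) and 0.892 for IL1RAP (PDGFRL), and IRAK1 reached 0.862 (C20orf27). Among the members themselves r was 0.969 between IL1B and IRAK2, 0.956 between IL1A and IRAK2 and 0.936 between IL1A and IL1B.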

How the data were processed

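Poly(A) RNA was made into libraries with Nextera XT and sequenced on a NextSeq 500, in 48 libraries of 16 conditions. Per the paper's methods, the authors used Trim Galore for trimming, SortMeRNA against ribosomal RNA, STAR for alignment (GRCh38) and Salmon for quantification. Tool versions, the annotation and the strand setting are not given in the sources used here. A deposited table holds estimated counts (expected counts, 6.38% not whole) without normalization between libraries. A second table holds TPM, scaled by the authors for transcript length and library. Each covers 29744 genes, and 0 columns were left unmatched to a sample. Salmon shares reads between similar transcripts, so near-identical copies have uncertain counts.

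Estimated counts were rounded, and edgeR 4.0.16 under R 4.3.3 was run for each arm on 24 libraries and 8 conditions, with TMM scaling. Low genes were removed by filterByExpr with a count minimum of 10 and a total of at least 15. The quasi-likelihood test was two-sided, and the SE comes from its fit. The CRISPRko fit held 10962 genes (common dispersion 0.0354), and the CRISPRa fit held 10980 (0.0336). Against a group with 0 counts in all its libraries, the mean of the other group was divided by a floor of 3 counts in a library. With few counts a ratio of pooled counts is given with its counting interval. The scripts were tested on simulated counts.

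Groups, times and replicates came from the sample labels. Of 48 pairs of replicates 0 were identical, and the lowest chi-square per degree of freedom was 3.59. The members and the pathway lists were chosen with earlier results of these data known. The genes named are all 10 members, listed pathway genes that passed the threshold, GLIS3, the early response genes, the markers and the most similar genes, up to 3 for each member detected. Gene positions were matched by symbol in GENCODE v44, and promoters in RefSeq. Alternatives were DESeq2 1.42.0, edgeR with size factors from DESeq2, testing without the low-count filter, fitting only the libraries compared, adding a replicate block, limma 3.58.1 with log2(TPM + 1) or log2(TPM + 0.1), and leaving out each library in turn.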

Additional observations from a re-analysis of the deposited data

How the results depend on the processing

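The counts of members called in the cytokine responses and in the CRISPRa comparison stayed within 1.5 times under every alternative. Members called in the CRISPRko comparison at any time went from 0 to 2 with DESeq2 and without a filter on low counts, and to 1 with limma on log2(TPM + 1) and with only the libraries compared; with a library left out in turn they ranged from 0 to 1. Those called in its average over times went from 1 to 0 with limma on log2(TPM + 0.1) and ranged from 0 to 1 with a library left out. Changes of the response in the CRISPRa arm went from 0 to 2 with limma on log2(TPM + 1), for IL1B and IL1RN. In the counts of the CRISPRa arm IL1RN was tested only through the VP64_A libraries where it is high. The cause of these moves was not tested. With a library left out, the members called in the response ranged from 3 to 4 in H47_Ctrl, 3 to 4 in H47_KO and 4 to 6 in VP64_Ctrl.

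Directions turned for differences near 0 and for 1 called value. The averaged difference of IRAK2 in the CRISPRko arm (0.03) was -0.016 on log2(TPM + 1) and -0.11 to 0.13 with a library left out. That of IRAK1 in the CRISPRa arm (0.14) was -0.023 on log2(TPM + 1) and -0.023 on log2(TPM + 0.1). The 6 h response of IL1RAP in VP64_Ctrl, called higher by edgeR, was -0.15 and -0.16 on these scales, which move the median of all genes. The change of the IL1B response in the CRISPRa arm ranged from -1.52 to 0.17 at 6 h and from -1.55 to 0.13 at 12 h with a library left out, the positive values being without VP64_A 0 h replicate 1.

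Of 85 results 85 kept their direction and side of the threshold with DESeq2's size factors, and 80 of 83 with DESeq2. Without a filter on low counts 82 of 85 did, and with only the libraries compared 80 of 82. With limma 76 of 85 did on log2(TPM + 1), where 3 reversed, and 78 of 85 on log2(TPM + 0.1), where 2 reversed. With the replicate number as a block 84 of 85 did, the exception being IL1RN at 6 h in the CRISPRa arm (5.56, adjusted p = 0.0642). The numbers do not pair the libraries: the deviations of libraries with the same number correlated on average by 0.00677 (CRISPRko) and 0.0222 (CRISPRa), and by over 0.1 in 8 and 11 of 84 pairs. Depth limits IL1RN, IL33, IL1RL1 and IRAK3, and the size of the IL1A and IL1B responses, which divide by a few counts at 0 h.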
